A study of Mus musculus with 12 samples.

Results

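The genes described here are 33 genes of the pancreatic acinar cell, read in liver RNA. They were listed by name, with 19 digestive enzymes, 11 proteins of secretion and of the zymogen granule, and 3 transcription factors, and a listed gene was taken from the array wherever the probe annotation gave its symbol alone. Of the 33 listed genes, 31 were found, among 19938 named genes on the array, each with 1 probe. Pnlip, the main pancreatic lipase, and Klk1, tissue kallikrein, had no probe with their symbol, so no level is given for them, and they enter only the promoter counts. The samples were livers of male C57BL/6J mice from 2 telomerase lines, with 1 array per animal and 12 arrays in all. The mTERT KO group (first-generation, G1, knock-out of the telomerase reverse transcriptase) had 3 animals and the mTERT WT group 3 wild-type littermates. The mTR KO group (first-generation knock-out of the telomerase RNA) also had 3 animals, and the mTR WT group 3 wild-type littermates. The number of an array is read as its set, 1 KO and 1 WT littermate of a line, which gives 6 litters. Animals were matched for age and sex, were given no treatment according to the labels, and have no stated age here. The labels do not say which stretch of either gene was deleted, how the liver was cut out, or which lobe was taken, and they name no tissue other than liver.

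Acinar cells are the exocrine cells of the pancreas. They make digestive enzymes as inactive precursors, pack them into zymogen granules and release them into the duct, and their enzyme messengers are among the most abundant of any cell. A complex of PTF1A with RBPJL drives these enzyme genes by binding paired short motifs in their promoters, while BHLHA15, also called MIST1, organises the secretory machinery. The enzymes are not products of the adult hepatocyte, which secretes plasma proteins instead.

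Promoters of 6 genes are shown because they hold, or lack, the paired letters of the acinar complex. Cela1, Cel, Ctrb1 and Cpa1 shared the same 5 highest arrays, whereas Reg3d was above background on 1 array and Ptf1a on none. Each is the 250 bases before the annotated start, from RefSeq on build GRCm38.p6, written 5′ to 3′ on the gene's strand. Capitals mark CACCTG (E-box), TTTCCC (TC-box), TCAAGG (a motif of NR5A2), each on either strand, and TATAAA on the gene's strand.
Cela1, elastase, chr15:100687921-100688170, minus strand: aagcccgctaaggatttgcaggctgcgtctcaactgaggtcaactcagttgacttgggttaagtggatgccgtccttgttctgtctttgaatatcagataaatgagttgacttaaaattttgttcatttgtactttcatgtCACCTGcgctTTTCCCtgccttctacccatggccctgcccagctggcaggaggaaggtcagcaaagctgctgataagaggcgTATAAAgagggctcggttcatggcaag
Cel, bile salt-stimulated lipase, chr2:28563404-28563653, minus strand: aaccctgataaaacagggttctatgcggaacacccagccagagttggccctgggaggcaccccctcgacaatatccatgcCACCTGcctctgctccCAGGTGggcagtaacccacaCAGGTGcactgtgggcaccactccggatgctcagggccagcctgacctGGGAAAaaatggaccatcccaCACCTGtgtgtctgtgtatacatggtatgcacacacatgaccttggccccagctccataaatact
Reg3d, secreted lectin-like protein, chr6:78378866-78379115, minus strand: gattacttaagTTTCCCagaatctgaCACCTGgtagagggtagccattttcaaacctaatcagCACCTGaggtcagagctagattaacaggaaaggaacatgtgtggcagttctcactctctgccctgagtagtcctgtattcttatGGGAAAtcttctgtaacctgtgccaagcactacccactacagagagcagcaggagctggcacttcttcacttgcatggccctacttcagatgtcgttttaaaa
Ctrb1, chymotrypsinogen, chr8:111691011-111691260, minus strand: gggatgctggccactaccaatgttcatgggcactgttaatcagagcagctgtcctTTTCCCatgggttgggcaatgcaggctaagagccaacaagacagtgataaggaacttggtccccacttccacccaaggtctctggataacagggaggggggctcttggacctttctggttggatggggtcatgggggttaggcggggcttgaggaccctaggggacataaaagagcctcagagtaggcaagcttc
Cpa1, procarboxypeptidase, chr6:30638968-30639217, plus strand: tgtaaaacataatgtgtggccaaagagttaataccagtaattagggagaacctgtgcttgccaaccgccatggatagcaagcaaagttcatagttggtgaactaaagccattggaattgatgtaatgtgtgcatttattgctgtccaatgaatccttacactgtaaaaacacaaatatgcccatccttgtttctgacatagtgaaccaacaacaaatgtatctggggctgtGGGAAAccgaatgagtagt
Ptf1a, transcription factor, chr2:19445413-19445662, plus strand: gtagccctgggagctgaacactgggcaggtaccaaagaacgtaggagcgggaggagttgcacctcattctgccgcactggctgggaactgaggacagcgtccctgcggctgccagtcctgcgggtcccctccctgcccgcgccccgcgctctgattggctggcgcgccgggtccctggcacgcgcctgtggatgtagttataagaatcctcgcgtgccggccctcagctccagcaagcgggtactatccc

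Promoter sequences were matched for 27 of the 33 listed genes, and the rest are Clps, Try5, Ctrc, Zg16, Tff2 and Erp27. The E-box letters occurred in 16 of the 27 promoters (59.3%), against 17.2% of 32851 promoters in the RefSeq table. The TC-box letters occurred in 8 of 27 (29.6%), against 21.9% of all promoters. Both occurred in 5, Cel, Cela1, Cela2a, Prss2 and Reg3d (18.5%), against 3.61% of all promoters, and they lay within 20 bases of each other in Cel, Cela1 and Reg3d (11.1% against 0.785%). In Cela1 the TC-box stood next to the E-box, and TATAAA followed close to the start. A TATAAA between 20 and 40 bases before the start was found in 6 of 27 (22.2%), Cela1, Gp2, Pnlip, Reg1, Reg2 and Try4, against 1.99% of all promoters. The NR5A2 motif occurred in 4 of 27 (14.8%), Cela3b, Cuzd1, Gp2 and Rbpjl, against 12.5%. The Ctrb1 and Cpa1 promoters held a TC-box and no CACCTG, and the Ptf1a promoter held none of the 4 strings. These are matches of letters in 1 window per gene, and a window without a match says nothing of the factor.

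All values below are log2 intensities. Array medians lay between 4.37 and 4.43, and 14 hepatocyte markers, such as albumin, averaged 12.24 to 12.44 on every array. The level above which a probe is taken to show signal was set for each array at the 95th percentile of 1035 olfactory receptor probes, whose genes liver does not use, and lay between 4.21 and 4.49. Of all named genes, 49.8% to 56.4% lay above it. Probes differ in how strongly they respond, so an order of signal between genes is not an order of abundance. In whole-tissue RNA, fewer acinar cells and less RNA per cell cannot be told apart.

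Acinar genes were present on 5 of the 12 arrays and near background on the other 7. The mTERT KO animals had 24, 4 and 4 members above background on arrays 1, 2 and 3, against 20, 24 and 2 on the mTERT WT arrays. The mTR KO animals had 29, 3 and 2, against 2, 22 and 3 on the mTR WT arrays. The arrays with many members were therefore mTERT KO 1, mTERT WT 1, mTERT WT 2, mTR KO 1 and mTR WT 2, which fall in every one of the 4 groups. They belong to sets 1 and 2, while all 4 arrays of set 3 and the remaining arrays, mTERT KO 2, mTR KO 2 and mTR WT 1, had at most 4 members above background. Even there, Cela1, an elastase, and Try4, a trypsinogen, stayed above background, with 4.58 to 5.04 for Cela1 and 4.67 to 5.18 for Try4 on these 7 arrays. Whether these levels come from Cela1 and Try4 themselves or from their probes was not tested. The trypsinogens Prss2, Try4 and Try5 are close copies whose probes can bind each other's RNA, so their separate values are uncertain.

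**Figure D1:**
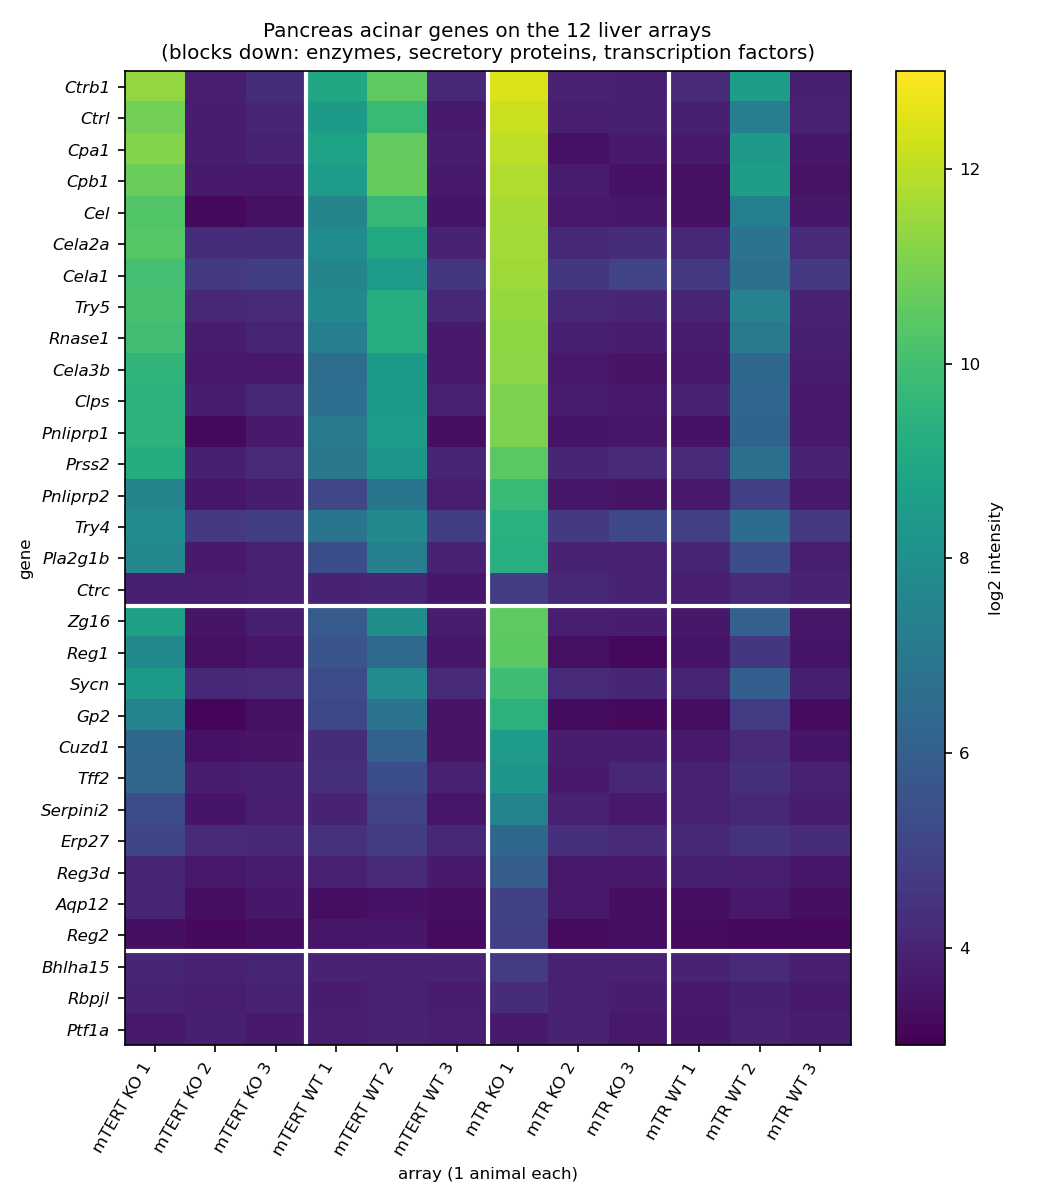
Log2 intensity of the 31 acinar genes (rows, in blocks of enzymes, secretory proteins and transcription factors, ordered by signal on mTR KO 1) on the 12 arrays (columns, KO left of WT in each line). Colour runs from dark at low signal to yellow at high signal, and the highest value is 12.44. In all, 5 columns stand out, with mTR KO 1 the brightest and the 3 transcription factors dark throughout.

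Among the enzymes, 16 of the 17 found were above background on mTERT KO 1, mTERT WT 1, mTERT WT 2 and mTR WT 2, and all 17 on mTR KO 1. The mean of the 17 enzymes was 9.37, 3.86 and 4.06 on mTERT KO arrays 1 to 3, against 7.15, 8.65 and 3.92 on mTERT WT arrays. It was 10.76, 3.94 and 3.96 on mTR KO arrays, against 3.95, 6.75 and 3.92 on mTR WT arrays. The enzymes above background thus formed nearly the same set on each of the 5 arrays, while their levels differed.

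Ctrb1, a chymotrypsinogen whose active form cuts after aromatic residues, read 11.38, 3.86 and 4.31 in mTERT KO, against 9.00, 10.53 and 4.10 in mTERT WT. It read 12.44, 3.93 and 3.88 in mTR KO, against 4.18, 8.55 and 3.87 in mTR WT. On mTR KO 1 it stood at the 99.8th percentile of all probes of that array. The groups overlapped in both lines, since each held at least 1 array at background and at least 1 far above it. Ctrl, a chymotrypsin-like protease, was next in signal on mTR KO 1 at 12.21, and read 10.87 on mTERT KO 1, 8.44 on mTERT WT 1, 9.77 on mTERT WT 2 and 7.29 on mTR WT 2.

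The carboxypeptidases, which trim peptides from their C-terminal end, stood beside the chymotrypsinogens in signal. Cpb1, which removes basic residues, read 10.70, 3.70 and 3.69 in mTERT KO, against 8.54, 10.63 and 3.71 in mTERT WT. Its values were 11.79, 3.81 and 3.50 in mTR KO, against 3.44, 8.56 and 3.52 in mTR WT. Cpb1 was the member of highest signal on both mTERT WT 2 and mTR WT 2, whereas Ctrb1 led on the 3 high arrays of set 1. Cpa1, which removes aromatic and aliphatic residues, read 12.02 on mTR KO 1, 11.14 on mTERT KO 1, 8.80 on mTERT WT 1, 10.59 on mTERT WT 2 and 8.42 on mTR WT 2.

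The elastases are serine proteases of the same fold as chymotrypsin, and among them Cela1 and Cela2a were among the 10 members of highest signal on all 5 arrays. Cela1 read 9.99, 4.70 and 4.86 in mTERT KO, against 7.54, 8.53 and 4.59 in mTERT WT. In the mTR line it read 11.56, 4.58 and 5.04 in KO, against 4.71, 6.68 and 4.65 in WT. Cela2a reached 11.62 and Cela3b 11.25 on mTR KO 1. The same 5 arrays were the highest for each of the 3 elastases.

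Enzymes of fat and nucleic acid digestion followed the same arrays. Cel, the bile salt-stimulated lipase, read 10.30, 3.21 and 3.44 in mTERT KO, against 7.56, 9.65 and 3.58 in mTERT WT, and 11.68, 3.69 and 3.65 in mTR KO, against 3.43, 7.31 and 3.63 in mTR WT. Clps, the colipase that anchors lipase to fat droplets, reached 11.02 on mTR KO 1, and the lipase-related proteins Pnliprp1 and Pnliprp2 reached 11.01 and 9.72. Rnase1, the pancreatic ribonuclease, reached 11.30, and Pla2g1b, the secreted phospholipase A2, reached 9.33. The trypsinogens Try5, Prss2 and Try4 reached 11.42, 10.43 and 9.38. Ctrc, chymotrypsin C, which in humans regulates trypsinogen, was the exception among the enzymes. It read 3.90, 3.85 and 3.92 in mTERT KO, against 4.01, 4.09 and 3.64 in mTERT WT, and 4.80, 4.13 and 3.98 in mTR KO, against 3.84, 4.19 and 3.98 in mTR WT. The 4.80 of Ctrc on mTR KO 1 lay above the 95th percentile of the olfactory receptor probes there, 4.49, but not above the 99th, 4.88.

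Secretory and granule proteins appeared on the same arrays, but a smaller share of them lay above background on every array of the 5 except mTR KO 1. Of 11 found, 11 were above background on mTR KO 1, 8 on mTERT KO 1, 8 on mTERT WT 2, 6 on mTR WT 2 and 4 on mTERT WT 1. Zg16, a lectin-like protein of the granule, read 8.74, 3.56 and 3.87 in mTERT KO, against 5.88, 7.96 and 3.82 in mTERT WT. It read 10.51, 3.84 and 3.81 in mTR KO, against 3.65, 6.06 and 3.62 in mTR WT. Sycn (syncollin), a protein on the inner face of the granule membrane, reached 9.90 and Gp2, the major glycoprotein of that membrane, reached 9.41 on mTR KO 1. Zg16, Sycn, Gp2 and Reg1 were the only members of this class above background on mTERT WT 1, at 5.88, 5.29, 5.17 and 5.62.

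Reg1, a secreted lectin-like protein of the regenerating family, read 7.76, 3.44 and 3.60 in mTERT KO, against 5.62, 6.43 and 3.63 in mTERT WT. It read 10.49, 3.43 and 3.21 in mTR KO, against 3.55, 4.56 and 3.58 in mTR WT. Reg1 was the member with the largest step between mTR KO 1 and each of the other 4 high arrays, ahead of mTERT KO 1 by 2.73 and of mTR WT 2 by 5.93. On mTR KO 1 it read 1.07 above Gp2, whereas on mTERT WT 2 the difference of Reg1 from Gp2 was -0.42. Its relatives Reg2 and Reg3d were above background only on mTR KO 1, at 4.90 and 5.95, as did Aqp12, a water channel inside acinar cells, at 4.92. Cuzd1, a granule membrane protein, and Serpini2, a serine protease inhibitor of the pancreas, were above background on mTR KO 1 (8.47 and 7.46), mTERT KO 1 (6.38 and 5.27) and mTERT WT 2 (6.15 and 5.02) and on no other array. Tff2, a trefoil peptide also made in the stomach, reached 8.28 and Erp27, a chaperone-like protein of the endoplasmic reticulum, 6.35 on mTR KO 1.

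The transcription factors were at or near background. Bhlha15 read 4.07, 3.90 and 4.05 in mTERT KO, against 4.01, 3.92 and 3.98 in mTERT WT, and 4.76, 3.90 and 3.93 in mTR KO, against 4.01, 4.18 and 3.85 in mTR WT. Its 4.76 on mTR KO 1 was above the 95th and below the 99th percentile of the olfactory receptor probes. Rbpjl was below background on all 12 arrays, with its highest value of 4.27 on mTR KO 1. Ptf1a was also below background on all 12, with 3.71 on mTR KO 1 and 3.97 as its highest value, on mTR KO 2. At such levels the arrays cannot show whether these factors differed.

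The order of the arrays was shared by most members. For 24 of 31 members the 5 highest arrays were the same 5, and for 18 of them the order from the top was mTR KO 1, mTERT KO 1, mTERT WT 2, mTERT WT 1 and mTR WT 2. Among the 19907 other named genes, 35 (0.176%) had these same 5 arrays highest. The 5 arrays and their order were picked from the values of these same members. Both member counts were therefore largely fixed by that choice, and the share of other genes beside them is no test. The 7 members without it were Ctrc, Reg2, Reg3d, Aqp12 and the 3 transcription factors, none of which was above background on any array other than mTR KO 1. Over the members above background on both arrays of a pair, the median step was 1.53 from mTR KO 1 over mTERT KO 1 (24 members, from 0.88 for Cpa1 to 2.73 for Reg1). The median step of mTERT KO 1 over mTERT WT 2 was 0.74 (24 members, from 0.07 for Cpb1 to 1.46 for Cela1), and that of mTERT WT 2 over mTERT WT 1 was 1.72 (20 members, from 0.82 for Reg1 to 2.54 for Sycn). The last step, mTERT WT 1 over mTR WT 2, was small at a median of 0.33, with 17 of 20 members higher on mTERT WT 1 and Sycn at -0.71. Each array is 1 animal, so these steps have no replicate error.

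The mixture of products was not the same on each of the 5 arrays. Relative to Cpb1 on the same array, Cela1 read -0.71 on mTERT KO 1, -0.99 on mTERT WT 1 and -0.23 on mTR KO 1, the high arrays of set 1. The same difference was -2.10 on mTERT WT 2 and -1.88 on mTR WT 2, the high arrays of set 2. Ctrb1 relative to Cpb1 was 0.68, 0.46 and 0.65 on those arrays of set 1 and -0.10 and -0.01 on those of set 2. Of 17 other members above 4.89 on all 5 arrays, 14 were higher relative to Cpb1 on all 3 of these set 1 arrays than on both set 2 arrays, and 0 were lower. Try4, Sycn and Zg16 were the exceptions. The mean of the 3 elastases minus the mean of the 2 carboxypeptidases was -0.96, -1.33 and -0.43 on mTERT KO 1, mTERT WT 1 and mTR KO 1, against -1.92 and -1.87 on mTERT WT 2 and mTR WT 2. This pattern was noticed in the values and was not tested. The 17 differences share Cpb1 as their reference, and Cpb1 is also 1 of the 2 carboxypeptidases. A shift of Cpb1 alone would therefore move all of them, so the 14 genes are not separate observations. Cpa1, the other carboxypeptidase and 1 of the 14, read 0.44, 0.26 and 0.23 relative to Cpb1 on mTERT KO 1, mTERT WT 1 and mTR KO 1. It read -0.04 on mTERT WT 2 and -0.14 on mTR WT 2. Cel relative to Cpb1 read -0.979 on mTERT WT 1 and -0.981 on mTERT WT 2. Against Cpa1 instead, Cel would therefore not be higher on mTERT WT 1 than on mTERT WT 2. The full count against another reference gene was not taken. Both high arrays of set 2 are WT and only 1 of the 3 of set 1 is. That WT array, mTERT WT 1, lay on the side of the set 1 KO arrays, at -0.99 for Cela1 and 0.46 for Ctrb1. It is 1 animal, and no high array of set 2 is a KO, so the parts of set and genotype were not tested.

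**Figure D2:**
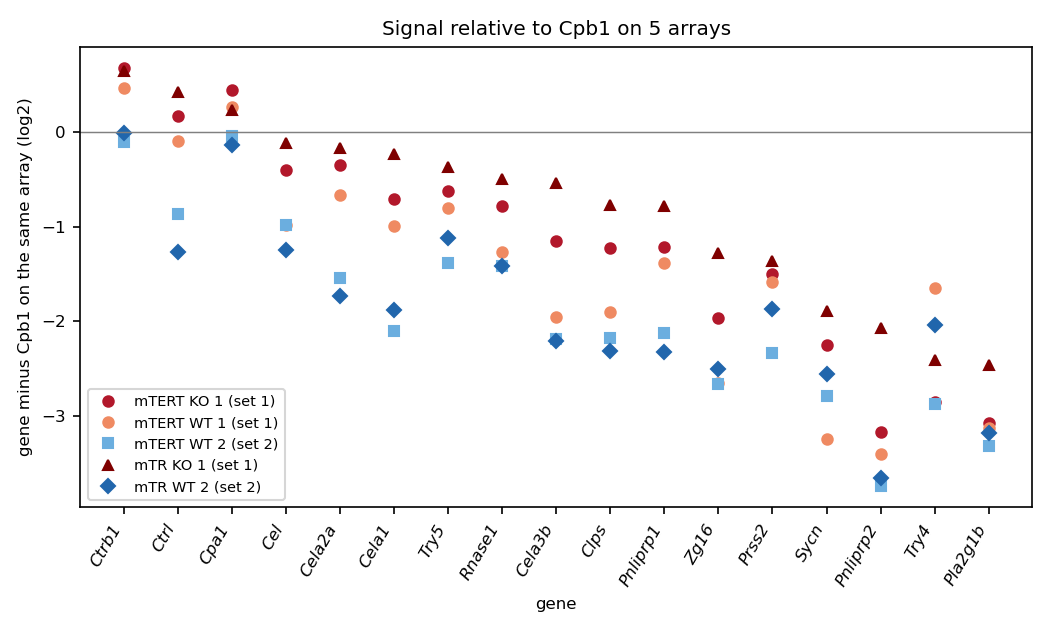
Log2 signal of 17 acinar genes minus that of Cpb1 on the same array (vertical axis), for the 5 arrays with many members above background, coded by colour and shape. For 14 of the 17 genes the red and orange points of set 1 lie above both blue points of set 2. All 17 share Cpb1 as their reference, so the 14 are not separate observations. Cela1 reads -0.23 to -0.99 in set 1 against -2.10 and -1.88 in set 2.

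Within litters the direction of the KO against WT difference depended on the set. In the mTERT line, set 1 had a median KO minus WT difference of 2.24 over the 31 members, with 28 higher in the KO and 22 over 2-fold higher, where 0.221% of all genes were over 2-fold higher and 0.306% over 2-fold lower. In set 2 the median was -3.69, with 23 members over 2-fold lower in the KO and none higher, against 0.186% of all genes in either direction, and Cpb1 differed by -6.92. In set 3 the median was 0.07, and no member differed by over 2-fold, against 0.0201% of all genes higher and 0.376% lower.

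In the mTR line, set 1 had a median of 6.06, with 31 of 31 members higher in the KO and 27 over 2-fold higher, against 0.251% of all genes higher and 0.0401% lower, and Cpb1 differed by 8.35. Set 2 had a median of -1.81, with 20 members over 2-fold lower in the KO, against 0.01% of all genes higher and 0.15% lower, and Cpa1 differed by -4.94. Set 3 had a median of 0.02 and no member past 2-fold, against 0.0351% higher and 0.0401% lower. In both lines, then, the KO was the higher littermate in set 1, the lower in set 2, and close to the WT in set 3. With 1 array per animal a single litter carries no test.

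**Figure D3:**
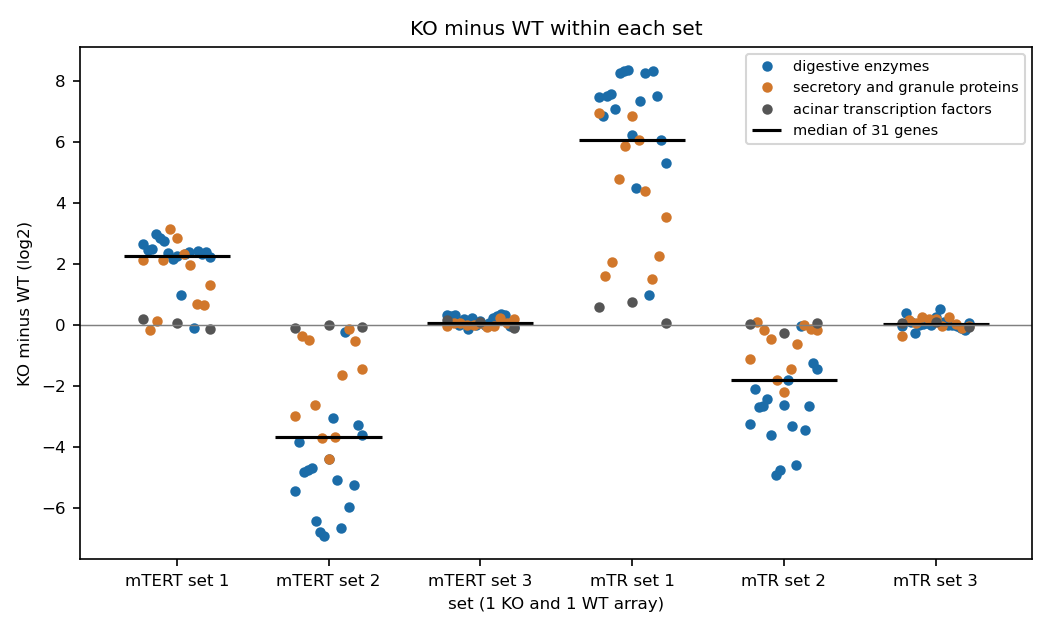
KO minus WT difference (log2) of each of the 31 acinar genes within each set of littermates, coloured by class, with the median as a black line. Medians were 2.24, -3.69 and 0.07 in mTERT sets 1 to 3 and 6.06, -1.81 and 0.02 in mTR sets 1 to 3.

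The comparison of genotypes asked whether loss of either telomerase component shifted these genes. By limma over 20197 probes, of which 27 were members that passed the filter on dim probes, no acinar gene passed in either line or in the difference between lines. Adjusted p was 1 for every tested member in all 3 comparisons. At an adjusted p under 0.05, 0% of all probes were called in each comparison, and likewise 0% with the littermates as a replicate block. At an unadjusted p under 0.05, 0 of 27 members were counted in any comparison, where the shares of all probes were 0.743% higher and 0.659% lower in mTERT KO, 0.386% higher and 0.579% lower in mTR KO, and 0.555% and 0.896% for the difference of the KO effects. The p-values set each difference of means against a spread between animals within groups. That spread was pooled over the 4 groups of 3 animals, and limma moderated it over the probes tested.

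In mTERT KO the median difference from WT over the 31 members was -0.48, where the median of all genes was 0.0019. The members ran from -1.59 for Cpb1 to 0.27 for Aqp12, and 6 of 31 were above 0. Of the members tested, 5 had a mean at least 2-fold lower, against 0.233% of all probes, and 0 at least 2-fold higher, against 0.0099%. Ctrb1 averaged 6.51 ± 4.22 in mTERT KO and 7.87 ± 3.36 in mTERT WT (SD, n = 3 each), a difference of -1.36 (SE 2.65). For Ctrb1 the spread within each group was larger than the difference, which ran from -3.79 without mTERT KO 1 to -0.03 without mTERT KO 2, and was also -0.03 without mTERT WT 2. That of Cpb1 ran from -3.93 without mTERT KO 1 to -0.09 without mTERT WT 2.

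In mTR KO the median difference was 1.33, where the median of all genes was -0.0016, and 31 of 31 members were above 0, from 0.01 for Ptf1a to 1.82 for Reg1. Means were at least 2-fold higher for 23 of the 27 members tested, against 0.173% of all probes (35 probes), and 0 at least 2-fold lower, against 0.00495%. Reg1 averaged 5.71 ± 4.14 in mTR KO and 3.90 ± 0.578 in mTR WT (SD, n = 3 each), a difference of 1.82 (SE 1.73). The direction rested on 1 array, since without mTR KO 1 the median was -0.52 and Reg1 differed by -0.57. In mTERT KO the median turned to 0.25 without mTERT WT 2, to 0.25 without mTERT KO 2 and to 0.11 without mTERT KO 3. The difference of the KO effects, mTR minus mTERT, had a median of 1.96 over the members and of -0.13 without mTR KO 1.

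The genes most like the members included other digestive enzymes. Over the 12 arrays, Try10, a trypsinogen, had a Pearson r of 0.992 with the mean of the 31 members and read 10.69 on mTR KO 1, and 2210010C04Rik had an r of 0.988 and read 11.56 there. Cela3a, an elastase (0.938), Pdia2, a protein disulfide isomerase of the pancreas (0.936), Klk1b5, a kallikrein (0.929), Nupr1, a stress-induced nuclear protein (0.918), and Prss3, a trypsinogen (0.902), followed, with 6.57 to 7.69 on mTR KO 1. Ptger3 (0.939) and Cpa5 (0.872) were below background on all 12 arrays, so their likeness rests on values without signal, and Mirlet7f-2 (0.891) reached 4.58. Of 18224 genes compared, 8 had an r over 0.9. These coefficients describe arrays that fall into high and low ones, and carry no p.

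Of 32 further acinar genes listed, 23 were found and 17 were above background on at least 1 array, and limma called 0 of the 18 tested in each comparison, with 0 at an unadjusted p under 0.05. Amy1, the salivary and liver amylase, read 10.71 to 11.46 on all 12 arrays. It was highest on mTERT WT 2 (11.46), mTR WT 2 (11.26), mTERT KO 1 (11.20) and mTR KO 1 (11.12). These are all arrays with many members above background, but their order was not that of the members. On mTERT WT 1, the remaining such array, Amy1 read 10.80, within the 10.71 to 10.98 of the arrays with few members. Sel1l and Nr5a2 were likewise above background on all 12 arrays. Pdia2 read 7.69 on mTR KO 1, 5.38 on mTERT KO 1 and 4.81 on mTERT WT 2, and was below background on the other 9 arrays.

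Markers of other tissues around the liver were given beside these values, since the label names liver alone. Of 17 islet genes found, 5 were above background on any array. Ins2, insulin, read 5.56 on mTR KO 1 and 4.44 on mTERT KO 1, against 3.82 to 4.07 on the other 10 arrays, and Iapp, islet amyloid polypeptide, read 4.65 on mTR KO 1 and at most 3.93 elsewhere. The other islet genes above background did not share this order. Slc2a2, the glucose transporter that hepatocytes also use, read 9.88 to 10.50 on all 12 arrays and was highest on mTR WT 1, Sst, somatostatin, was above background on 8 arrays and highest on mTERT WT 2 (4.54), and Pyy, peptide YY, was above it on 6 and highest on mTR KO 1 (4.56). The remaining 12 islet genes, among them Gcg, glucagon, were below background on every array. Sst, Pyy and Gcg were picked after their values were seen. Stomach genes (13 found) averaged 3.91 to 4.07, intestine genes (18 found) 4.34 to 4.48, salivary gland genes (11 found) 4.31 to 4.65, with the highest on mTR KO 1, and B cell genes of spleen and lymph node (9 found) 3.74 to 3.93. Duct genes (13 found), most of which bile ducts also express, averaged 5.12 to 5.70 with the highest on mTERT WT 3, and adipocyte genes (10 found) 5.31 to 5.56.

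Skeletal muscle genes (15 found), such as the actin gene Acta1, averaged 6.81 on mTERT WT 1 and 6.50 on mTERT WT 3, against 3.81 to 4.41 on the other arrays. The array mTERT WT 1 therefore carried both acinar and muscle transcripts, mTERT WT 3 muscle without acinar, and mTERT WT 2, mTR KO 1 and mTR WT 2 acinar genes with a muscle mean of 3.81 to 3.94. On mTERT KO 1 the muscle mean was 4.41, with 6 of 15 muscle genes above background, among them Acta1 at 6.50 and Tnnt3, a troponin gene, at 5.41. By limma 0 of the 14 muscle genes tested passed in mTERT KO against WT. All 14 were lower in mTERT KO at an unadjusted p under 0.05, against 0.659% of all probes. Some of the 14 passed the filter on dim probes only through mTERT WT 1 and mTERT WT 3, so this count is no test of the list. The median over the 15 muscle genes found was -1.69, against -0.48 for the 31 acinar members found. In mTR KO 0 of the 14 muscle genes and 1 of 10 islet genes had an unadjusted p under 0.05, and none passed. The shares of all probes there were 0.386% higher and 0.579% lower. Hepatocyte genes averaged 12.34 on mTERT KO 1, 12.44 on mTERT WT 1, 12.35 on mTERT WT 2, 12.31 on mTR KO 1 and 12.24 on mTR WT 2, against 12.33 to 12.41 on the other 7 arrays. The part of any of these lists in the acinar values was not tested.

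**Figure D4:**
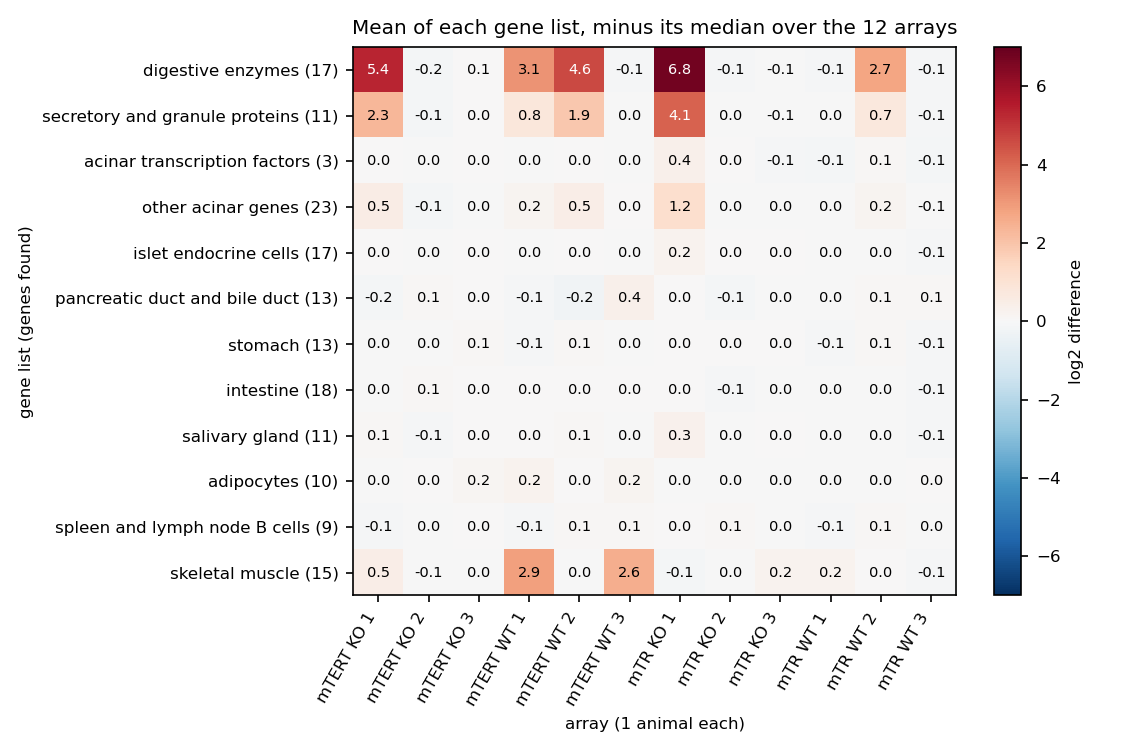
Mean of each gene list on each array minus the median of that list over the 12 arrays (log2), with lists down the page and arrays across, KO left of WT. The enzymes reach 6.75 and the secretory proteins 4.13 on mTR KO 1, skeletal muscle reaches 2.88 on mTERT WT 1, and no other list exceeds 1.17.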

How the data were processed

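Total RNA of 12 livers was hybridised to one-colour Affymetrix arrays, 1 per animal. The authors deposited 1 table for the series, and its values are taken as log2 intensities. Per the submitters' processing notes, GCOS 1.4, Affymetrix Expression Console and PLIER were used, without their order. The base of the logarithm is not given in the sources used here and was read as 2 from the range of 2.62 to 13.83, and neither normalization nor probe filter is given. Of 28853 probes, 21789 had 1 gene symbol in the platform annotation, 1621 had several and 5443 had none. A gene was read from its probe of highest mean.

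Tests used limma 3.58.1 under R 4.3.3, with 4 group means over all 12 arrays, two-sided, and Benjamini-Hochberg adjustment over 20197 probes whose mean reached the 30th percentile (3.90), at a threshold of 0.05. The fit was tested on simulated data. Groups come from the labels. The series text states sets of littermates, and reading an array's number as its set is an inference, since no label says that the number marks a litter. After removal of group means the correlation of KO with WT arrays, by set, was 0.692, 0.135 and 0.623 for mTERT and 0.458, 0.151 and 0.552 for mTR. Precision is limited by the number of arrays.

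The members and the marker lists were chosen with earlier results of these data known. Named genes are all members, the 10 other genes most like their mean over the arrays (olfactory and vomeronasal receptors and predicted genes left out), and up to 5 of highest signal from the further acinar list and up to 3 from each other marker list, not all of which are printed, with others marked as picked after their values were seen. Promoters come from the RefSeq table of build GRCm38.p6. Alternatives were quantile normalization, median centring, other filters, other eBayes settings, 1 probe per gene, the replicate block, and leaving out arrays.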

Additional observations from a re-analysis of the deposited data

How the results depend on the processing

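No member passed the threshold under any alternative run, and quantile normalization, median centring, other filters, other eBayes settings and 1 probe per gene left 0 probes called in each comparison. With littermates as a replicate block, limma again called 0 probes, while 1037 probes in mTERT KO, 851 in mTR KO and 1264 for the difference of the KO effects had an unadjusted p under 0.05, against 283, 195 and 293 without the block. The block left the member medians at -0.48, 1.33 and 1.96. Leaving out single arrays moved the called probes between 0 and 41 in mTERT KO and between 0 and 30 for the difference, both highest without mTERT WT 2, and none of these were members; without mTERT WT 1 the mTERT count was 1. The member median ran from -1.76 to 0.25 in mTERT KO, from -0.52 to 2.49 in mTR KO and from -0.13 to 3.40 for the difference. It turned positive in mTERT KO without mTERT WT 2 (0.25), mTERT KO 2 (0.25) or mTERT KO 3 (0.11), where Reg1 read 0.31, 0.45 and 0.37 and ran from -1.71 to 0.45. Without mTR KO 1, the mTR difference was -1.63 for Ctrb1, -1.52 for Cpb1 and -0.57 for Reg1, the lowest of ranges that reached 2.72, 2.89 and 3.07. Without the 4 arrays of set 1, chosen after seeing the data, 1 probe was called in each line, the mTR member median was -0.75, and Ctrb1, Cpb1 and Reg1 differed by -2.31, -2.39 and -0.75 there; in mTERT KO the member median was -1.84, with -3.23, -3.47 and -1.51 for these genes, and for the difference of the KO effects it was 0.92. The 99th percentile of the olfactory receptor probes was also taken as background. The members above it were then 2 on mTERT KO 2, 2 on mTERT KO 3 and 1 on mTERT WT 3. In the mTR line they were 0 on mTR KO 2, 2 on mTR KO 3, 1 on mTR WT 1 and 2 on mTR WT 3. On mTERT KO 1, mTERT WT 1, mTERT WT 2, mTR KO 1 and mTR WT 2 they were 24, 20, 24, 27 and 18. Cause was not tested for any of these. Members near background, such as Ptf1a, Rbpjl, Bhlha15 and Ctrc, are limited by signal, and 3 animals a group with acinar signal on 1 or 2 of them limit every genotype comparison.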
